A study of Mus musculus with 58 samples.

Results

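Dpp4, Pi16, Anxa3, Sema3c, Dact2, Efhd1, Creb5, Ly6c1, Limch1 and Stmn4 are 10 transcripts used to mark DPP4+ interstitial progenitors, the ASC2 population of adipose stem cells (ASC). They were found by matching gene identifiers to symbols in a table of 56953 genes, and all 10 passed the filter on low counts that left 12464 genes for testing. The cells came from inguinal white adipose tissue (iWAT) of C57BL6/J mice and were sorted as CD45-, CD31- and CD34+. DPP4- cells were collected as ASC1 and DPP4+ cells as ASC2, and Smart-seq3, which copies whole transcripts into cDNA, was run on their bulk RNA. The 4 treatment groups were control males (7 ASC1 and 8 ASC2 libraries), castrated males (8 and 8), control females (8 and 8) and ovariectomized females (3 and 8). Surgery was performed at 4 weeks of age, and mice of the 4 groups were terminated at 10 weeks after a 4 h fast. Whether controls were sham operated was not given in the sources used here.

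DPP4+ cells lie in the reticular interstitium around fat lobules, a fibrous layer that also lines other organs. They are regarded as early, multipotent mesenchymal progenitors that give rise to the committed preadipocytes inside the lobules, and they are held in the undifferentiated state by factors such as TGF-beta. Their transcripts comprise surface proteins (Dpp4, Ly6c1), secreted proteins (Pi16, Sema3c), signalling and transcription proteins (Dact2, Creb5), and calcium-binding or cytoskeletal proteins (Anxa3, Efhd1, Limch1, Stmn4).

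Expression is given as CPM, the counts of a gene relative to the TMM-scaled total of its library. Log2 fold changes with standard errors (SE) were fitted with edgeR by quasi-likelihood over 58 libraries together. A gene was called at an adjusted p below 0.05 over all 12464 genes. Total counts ranged from 106566 to 1421547 per library, and 8 libraries had under 300000. In 25 libraries the balance of Xist against 4 Y-chromosome transcripts went against the labelled sex, and 13 carried both signals, so that 27 of 58 failed at least one of these checks. All 8 ASC1 libraries of castrated males went against their label, and none of the castrated ASC2 libraries did. Failing either check were 4 of 7 ASC1 and 4 of 8 ASC2 libraries of control males, and 5 of 8 ASC1 and 6 of 8 ASC2 libraries of control females. No library of ovariectomized females failed. Groups are named by their labels throughout, and main results are also given without these libraries. The paper calls Tbx15 specific for iWAT and Tcf21 for perigonadal fat. Tcf21 was called lower in ASC2 of control males (log2 fold change -5.30, adjusted p = 0.0481) and castrated males (-3.17, 0.0246). For castrated males its median was 46.4 CPM for ASC1 against 0 for ASC2, and that of Tbx15 (not called) 1.28 against 21.6 CPM. In ovariectomized females Tcf21 had no read in ASC1 and a median of 15.2 CPM in ASC2 (not called). Whether depot plays a part was not tested.

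The 3 ASC1 libraries of ovariectomized females stood apart from the other 55 libraries. They held 9122 to 11634 genes with a read, against a median of 13624.5 over all libraries, and 2 of them had under 300000 counts. The summed level of the fibroblast transcripts Pdgfra, Col1a1, Dcn and Lum was 43144 to 45105 CPM in them, whereas it lay between 3024 and 13976 CPM in the other libraries. Cd34, the surface protein of the sort gate, was at a median of 1666 CPM there and 333 CPM in the matching ASC2 libraries. In the other treatment groups Cd34 was higher in ASC2, with log2 fold changes of 1.72 to 2.71. Of 5 mammary epithelium transcripts, all 5 were without a read in these 3 libraries, and the macrophage transcript Adgre1 was as well. What part this difference plays in the results on ovariectomized females was not tested.

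**Figure D1:**
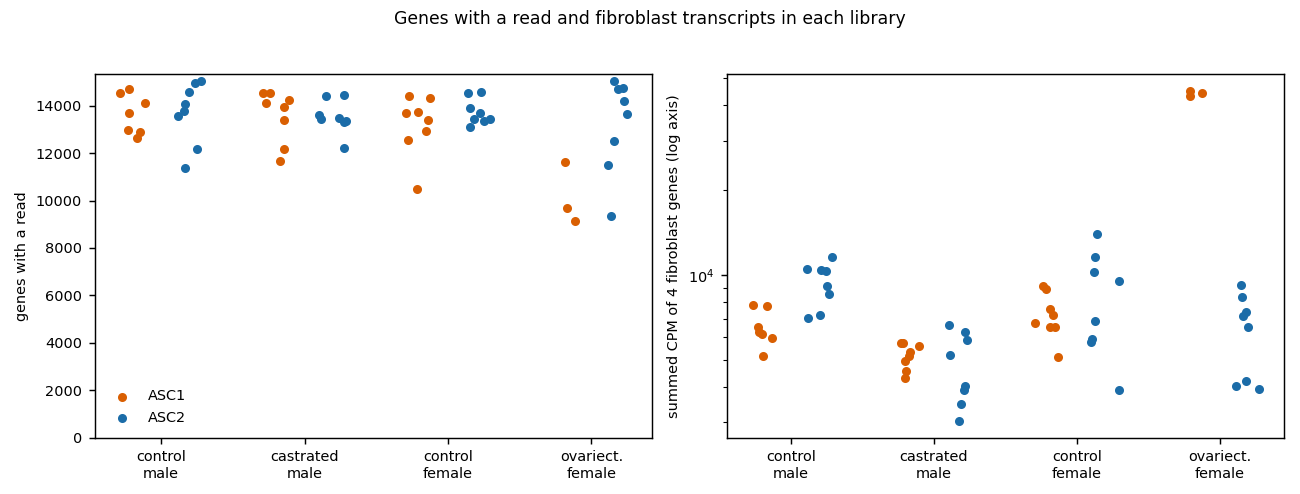
Genes with a read (left) and summed CPM of 4 fibroblast transcripts on a log axis (right) in each of the 58 libraries, by treatment group and population; each point is a library. The 3 ASC1 libraries of ovariectomized females, at 43144 to 45105 CPM, lie above all others on the right.

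Promoter sequences are shown for 3 members, the sorted gene itself (Dpp4), the secreted protein with the widest difference between populations in controls (Pi16) and the transcription factor (Creb5). They are RefSeq promoters on GRCm38.p6, 250 bases before to 50 after the start of the gene, written 5′ to 3′ on the strand of the gene. Capitals mark the sequence TATAAA, the AGAACA half-site of the androgen and glucocorticoid receptors, and the cAMP response element TGACGTCA. Each was searched on either strand. The Dpp4 promoter lies at chr2:62412182-62412481 on the minus strand, that of Pi16 at chr17:29318632-29318931 on the plus strand and the first of Creb5 at chr6:53287053-53287352 on the plus strand.
Dpp4: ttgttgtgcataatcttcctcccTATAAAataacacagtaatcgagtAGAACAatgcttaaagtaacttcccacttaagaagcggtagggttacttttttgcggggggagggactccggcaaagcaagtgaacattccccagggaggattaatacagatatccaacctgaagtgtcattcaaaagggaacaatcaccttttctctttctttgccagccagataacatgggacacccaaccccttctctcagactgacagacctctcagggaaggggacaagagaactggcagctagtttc
Pi16: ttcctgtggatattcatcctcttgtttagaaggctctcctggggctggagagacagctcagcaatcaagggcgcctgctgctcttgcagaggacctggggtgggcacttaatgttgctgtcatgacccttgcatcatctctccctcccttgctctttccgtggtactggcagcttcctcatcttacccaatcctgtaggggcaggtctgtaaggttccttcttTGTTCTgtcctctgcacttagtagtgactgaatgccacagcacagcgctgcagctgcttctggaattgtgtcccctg
Creb5: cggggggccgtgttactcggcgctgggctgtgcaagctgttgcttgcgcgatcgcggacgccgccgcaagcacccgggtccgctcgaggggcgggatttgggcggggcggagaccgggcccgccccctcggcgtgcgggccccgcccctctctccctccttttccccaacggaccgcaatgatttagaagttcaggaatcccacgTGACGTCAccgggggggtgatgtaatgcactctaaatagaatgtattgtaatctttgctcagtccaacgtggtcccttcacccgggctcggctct

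In all, 8 of the 10 members matched an entry of the promoter table, with 12 promoters among them. TATAAA was found in 3 of the 12 and in 13.6% of 32851 promoters of the same length, and AGAACA in 3 of the 12 and in 19.0% of all. TATAAA lay 227 bases before the start in Dpp4, 143 in Ly6c1 and 76, on the reverse strand, in Limch1. TGACGTCA occurred in the Creb5 promoter alone of the 12, 45 bases before the start, and in 1.79% of all promoters. The estrogen response element was in none of the 12 and in 0.07% of all. The motifs did not overlap one another in these promoters.

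Dpp4, the dipeptidyl peptidase on which the cells were sorted, served as a check of the sort and not as a finding. In control males it lay at 0.872, 7.64 and 14.1 CPM (lowest, median and highest) in ASC1 and at 121, 241 and 343 CPM in ASC2. The populations did not overlap in any treatment group. In castrated males ASC1 reached 47.3 CPM and ASC2 began at 49.2 CPM, the narrowest gap of the 4 groups. Control females had a median of 33.9 CPM in ASC1 and 221 CPM in ASC2, and ovariectomized females 18.4 and 87.6 CPM. In ovariectomized females Dpp4 was no longer called without the libraries under 300000 counts (log2 fold change 1.51, adjusted p = 0.186).

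The other interstitial progenitor markers were higher in ASC2 than in ASC1 in control mice of both sexes. With Dpp4, 10 of 10 members were called higher in ASC2 of control males, where 6.88% of all genes tested were called higher and 5.3% lower, and 10 of 10 in control females (3.54% higher and 2.58% lower). Castrated males had 8 of 10 (4.47% higher, 4.62% lower). Ovariectomized females had 3 of 10 higher and 1 lower, in a comparison that called 22.5% of all genes higher and 12.9% lower. Dpp4 was fixed by the sort, and Dact2 and Limch1 passed the filter on low counts mostly through ASC2. Of the other 7 members, 7 were called higher in control males, 6 in castrated males, 7 in control females and 2 in ovariectomized females, with 1 lower in the last group. Efhd1, 1 of these 7, also passed the filter mostly through ASC2, with 12, 2, 6 and 7 reads in ASC1 in this order of groups. It is among those called higher in each group but ovariectomized females. The median log2 fold change of the members was 3.00 in control males, 2.31 in castrated males, 3.04 in control females and 1.73 in ovariectomized females. Over all genes tested it was -0.01, 0.01, 0.00 and 0.37 in the same order. With Limch1, which had no read in ASC1 of ovariectomized females, set to its bound, the last median of the members was 1.35.

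Counted by library, every ASC2 library lay above every ASC1 library for 6 members in control males, 7 in castrated males, 7 in control females and 3 in ovariectomized females. The shares of all genes that separated in this way were 1.4%, 0.987%, 0.883% and 13.4%. Dpp4, Pi16 and Anxa3 separated in all 4 groups. Dpp4, fixed by the sort, is thus in each of these counts. So are genes that passed the filter mostly through ASC2, Efhd1 in all but ovariectomized females and Limch1 in control females. Without the libraries that failed a sex-chromosome check, 8 of 10 members were called in control males and 5 of 10 in control females, where 3 ASC1 and 2 ASC2 libraries were left. Ly6c1 and Limch1 were the members lost in control males, and Anxa3, Dact2, Creb5, Limch1 and Stmn4 those lost in control females. The sorted gene Dpp4 was kept in both. Shares of all genes called in these smaller fits are not given. A loss among the members therefore cannot be told apart from a general loss of calls. No such value exists for castrated males, since no ASC1 library would remain. Among the libraries left in control males, Tcf21 lay at 13.3 to 17.8 CPM in ASC1 and had no read in ASC2. Among those left in control females, it lay at 0 to 13.1 CPM in ASC1 and at 29.9 to 30.5 CPM in ASC2. In bulk RNA, fewer cells of a type and less RNA per cell cannot be told apart.

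**Figure D2:**
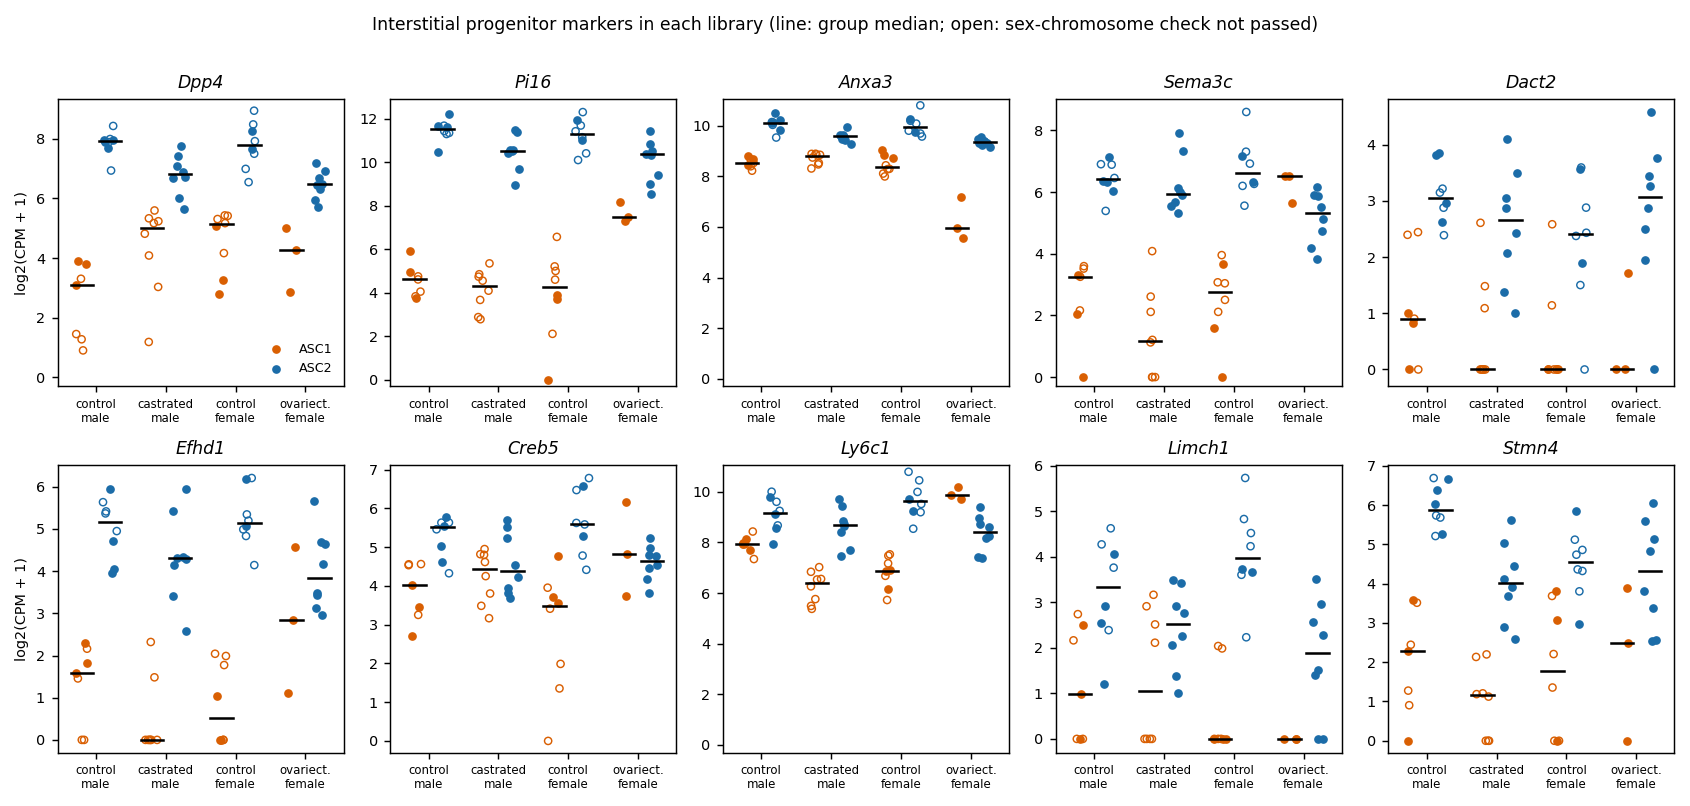
Level of each member as log2(CPM + 1) in each library, by treatment group, with ASC1 in orange and ASC2 in blue; lines are group medians and open points are libraries that failed a sex-chromosome check. Pi16 and Anxa3 separate the populations in each group, and Ly6c1 and Sema3c have their highest ASC1 levels in ovariectomized females.

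Pi16 encodes a secreted protein of the CAP family that marks adventitial fibroblasts in many organs. In control males it was at 12.7, 23.5 and 60.7 CPM (lowest, median and highest) in ASC1 and at 1410, 2960 and 4733 CPM in ASC2. Castrated males had 5.90, 19.4 and 39.9 CPM in ASC1 and 494, 1493 and 2836 CPM in ASC2. Control females had 0, 18.6 and 94.3 CPM in ASC1 and 1104, 2523 and 5094 CPM in ASC2. The populations were far apart in these 3 groups, with log2 fold changes of 6.76 ± 0.51 (SE; adjusted p = 1.89e-15), 6.46 ± 0.49 (2.46e-15) and 6.64 ± 0.48 (4.19e-16). In ovariectomized females the 3 ASC1 libraries held 158, 180 and 285 CPM, above each ASC1 library of the other groups, and ASC2 held 375, 1324 and 2761 CPM. The log2 fold change was 2.64 ± 0.60 (adjusted p = 0.000364).

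Sema3c, a secreted semaphorin that acts as a guidance signal, followed the same order in 3 groups. Its ASC1 libraries lay at 0, 8.54 and 11.1 CPM (lowest, median and highest) in control males, 0, 1.24 and 15.97 CPM in castrated males and 0, 5.96 and 14.5 CPM in control females. The ASC2 libraries lay at 40.9, 84.3 and 141 CPM, 39.2, 60.7 and 242 CPM, and 46.1, 99.5 and 386 CPM. No ASC2 library of these groups came down to the highest ASC1 library. The log2 fold changes were 3.70 ± 0.48, 5.21 ± 0.57 and 4.23 ± 0.48, with adjusted p of 1.25e-07, 1.27e-09 and 1.22e-09. In ovariectomized females ASC1 held 49.5, 90.3 and 91.8 CPM and ASC2 held 13.2, 39.7 and 71.0 CPM, so that the populations overlapped, with a log2 fold change of -0.999 ± 0.53 (adjusted p = 0.136).

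Ly6c1 encodes a GPI-anchored surface protein of the Ly6 family. In ASC1 it lay at 161, 243 and 344 CPM (lowest, median and highest) in control males, 40.6, 83.9 and 129 CPM in castrated males and 51.9, 117 and 184 CPM in control females. ASC2 libraries lay at 248, 579 and 1027 CPM, 175, 415 and 847 CPM, and 372, 787 and 1772 CPM. The populations overlapped in control males and not in the other 2 groups. Log2 fold changes were 1.31 ± 0.31 (SE; adjusted p = 0.003), 2.46 ± 0.32 (1.38e-07) and 2.93 ± 0.32 (9e-10). Without the libraries that failed the sex-chromosome checks the value for control males was 1.07 and no longer called (adjusted p = 0.15). In ovariectomized females the order turned, with ASC1 at 836, 936 and 1181 CPM and ASC2 at 167, 347 and 680 CPM, and the log2 fold change was -1.44 ± 0.38 (adjusted p = 0.00219). All 3 of these ASC1 libraries were above all 8 ASC2 libraries.

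Reads of Ly6c1 can be shared with the near-identical Ly6c2, which had 33 reads over all libraries against 17070 of Ly6c1. Adding the 2 genes together left the calls of Ly6c1 in the 4 groups as they were. Ly6a, which encodes the progenitor antigen Sca-1, was at group medians of 770 to 1038 CPM in ASC1 and 1066 to 1588 CPM in ASC2, apart from 2828 CPM in ASC1 of ovariectomized females. It was called higher in ASC2 of control females (log2 fold change 1.30) and lower in ASC2 of ovariectomized females (-1.54).

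Anxa3, an annexin that binds phospholipids in a calcium-dependent way, was well expressed in both populations. In control males it lay at 298, 368 and 447 CPM (lowest, median and highest) in ASC1 and at 739, 1105 and 1441 CPM in ASC2. Castrated males had 316, 444 and 474 CPM against 614, 761 and 984 CPM, and control females 254, 329 and 527 CPM against 760, 988 and 1787 CPM. The log2 fold changes were 1.53 ± 0.17, 0.87 ± 0.16 and 1.58 ± 0.17, with adjusted p of 2.51e-09, 0.000186 and 2.76e-10. In ovariectomized females ASC1 held 45.9, 61.9 and 144 CPM while ASC2 held 571, 656 and 750 CPM. There the log2 fold change was 2.86 ± 0.27 (adjusted p = 1.02e-12), the widest of the 4 groups for Anxa3.

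Efhd1, a calcium-binding protein with EF-hands located at mitochondria, and Stmn4, a stathmin that destabilizes microtubules, had few reads in ASC1. Efhd1 had 12, 2, 6 and 7 reads in ASC1 of control males, castrated males, control females and ovariectomized females, and 215, 119, 244 and 104 reads in ASC2. It passed the filter on low counts mostly through ASC2. Its median in ASC2 was 35.1, 18.7, 34.1 and 13.7 CPM. The log2 fold change was 3.90 ± 0.55 (SE, with adjusted p = 7.82e-07) in control males and 4.84 ± 0.59 (1.59e-08) in control females, and 1.42 ± 0.81 (0.167) in ovariectomized females. In the last group the ASC1 libraries lay at 1.14, 6.19 and 22.9 CPM. Without ASC1 replicate N Efhd1 was called higher there, at 3.14 (adjusted p = 0.0243). Its log2 fold change was 3.96 without the libraries under 300000 counts, which left 1 ASC1 library. In castrated males, with 2 reads in ASC1, the ratio of pooled levels was 54.7, with an exact 95% interval of 14.8 to 457 that covers counting error only.

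Stmn4 lay at 0 to 10.9 CPM in ASC1 and 36.0, 57.98 and 102 CPM (lowest, median and highest) in ASC2 of control males, which did not overlap. The medians of ASC2 were 15.2 CPM in castrated males, 22.6 CPM in control females and 20.2 CPM in ovariectomized females. Log2 fold changes of 3.75 ± 0.54 (adjusted p = 9.45e-07), 3.39 ± 0.68 (0.000391) and 2.52 ± 0.56 (0.00159) were called in control males, castrated males and control females. In ovariectomized females the value was 1.27 ± 0.80 (adjusted p = 0.212).

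Creb5, a transcription factor of the CREB family, had the smallest difference between the populations in castrated males. ASC1 libraries lay at 5.48, 15.3 and 22.7 CPM (lowest, median and highest) in control males and 7.99, 20.8 and 30.0 CPM in castrated males, and ASC2 libraries at 19.1, 44.6 and 53.5 CPM and 11.97, 19.97 and 50.8 CPM. Control females had 0, 10.2 and 26.2 CPM in ASC1 and 20.4, 47.8 and 109 CPM in ASC2. The populations overlapped in each of these groups. The log2 fold change was 1.41 ± 0.38 (adjusted p = 0.00954) in control males, 0.39 ± 0.38 (0.599) in castrated males and 2.85 ± 0.41 (8.59e-07) in control females. Ovariectomized females had 12.4, 27.5 and 70.9 CPM in ASC1 and a median of 24.2 CPM in ASC2, with a log2 fold change of -0.79 ± 0.49 (adjusted p = 0.205).

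Limch1, an actin-associated protein that activates non-muscle myosin, and Dact2, an antagonist of Dishevelled in Wnt signalling, rested on few reads, 265 and 169 over all libraries. Most of them were in ASC2, so that both genes passed the filter on low counts through the libraries in which they were high. Limch1 had 4 reads in ASC1 and 108 in ASC2 of control females, where its ASC2 libraries lay at 3.70, 15.0 and 52.3 CPM (lowest, median and highest). Its log2 fold change was 4.27 ± 0.74 (SE; adjusted p = 4.58e-05) in control females, 2.06 ± 0.64 (0.0253) in control males and 0.96 ± 0.70 (0.451) in castrated males. In ovariectomized females it had 25 reads in ASC2 and 0 in ASC1, which makes it at least 1.55-fold higher in ASC2 when a floor of 3 counts over the group is set. Without the libraries that failed the sex-chromosome checks Limch1 was no longer called in control males (1.42, adjusted p = 0.365), nor when any one of 4 single libraries was left out.

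Dact2 was called in control males (2.29 ± 0.68, adjusted p = 0.0183), castrated males (2.15 ± 0.72, 0.0465) and control females (2.43 ± 0.76, 0.04) on the log2 scale. Leaving out any one of 10 libraries in castrated males, or of 10 in control females, took the call away. In control males it was lost without ASC1 replicate C alone (adjusted p = 0.0504). In ovariectomized females Dact2 had 2 reads in ASC1 and 36 in ASC2, a ratio of pooled levels of 4.23 with an exact 95% interval of 1.09 to 36.3.

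**Figure D3:**
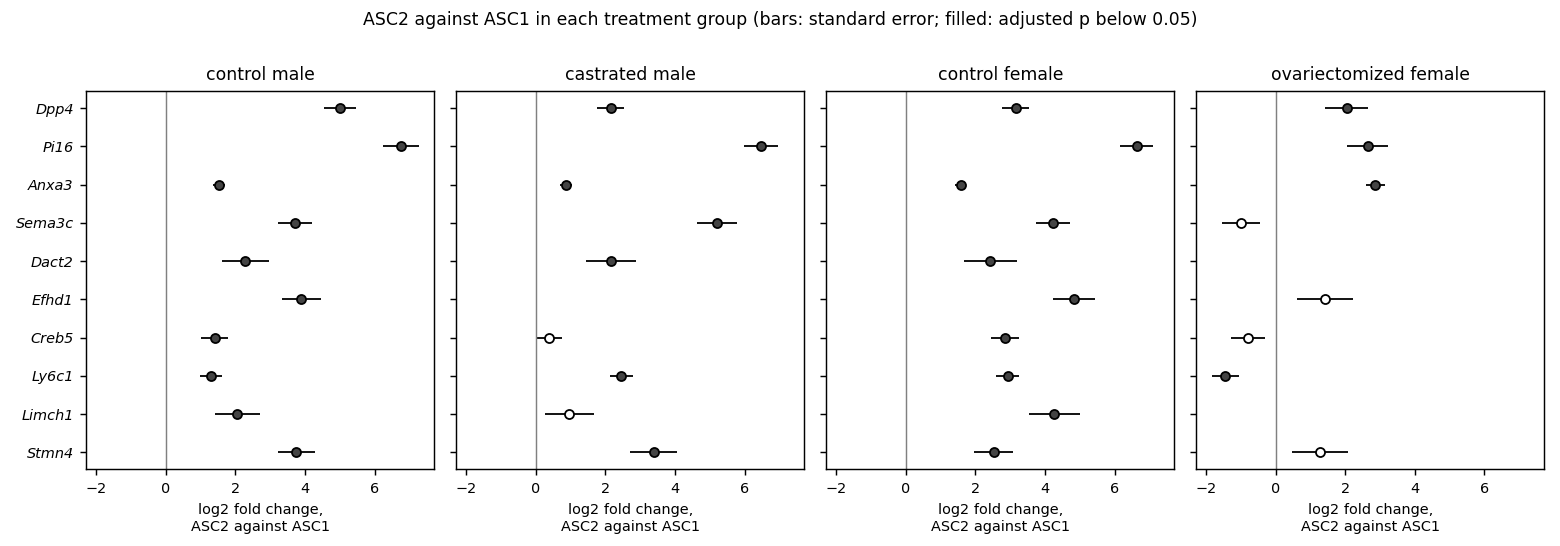
Log2 fold change of each member in ASC2 against ASC1 (horizontal axis) in the 4 treatment groups, with bars of 1 SE; filled points have an adjusted p below 0.05. Points with 3 or fewer reads in one population are left out (Efhd1 in castrated males, Dact2 and Limch1 in ovariectomized females), and Pi16 lies between 6.46 and 6.76 in 3 groups and at 2.64 in ovariectomized females.

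Whether the difference between populations itself differed among treatment groups was tested next. A joint test over the 4 groups called 8 of 10 members (37% of all genes), with Limch1 at the threshold (adjusted p = 0.04999) and Efhd1 close to it (0.0419). Pi16 (7.87e-07), Anxa3 (5.97e-06), Sema3c (3.21e-09), Creb5 (2.98e-05), Ly6c1 (3.5e-10) and the sorted gene Dpp4 (0.000358) had lower adjusted p. Dact2 (0.995) and Stmn4 (0.153) were not called. Limch1 was lost under 44 of 67 alternatives and Efhd1 under 17.

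Between ovariectomized and control females 6 of 10 members had another difference between populations in ovariectomized than in control females (34.8% of all genes). The log2 difference fell by 5.23 ± 0.71 for Sema3c (SE; adjusted p = 3.35e-08), by 4.37 ± 0.49 for Ly6c1 (1.66e-10), by 3.99 ± 0.65 for Pi16 (1.88e-06), by 3.64 ± 0.64 for Creb5 (7.97e-06) and by 3.42 ± 1.16 for Efhd1 (0.0175). For Anxa3 it rose by 1.29 ± 0.30 (0.000541). Efhd1 was not called without ovariectomized ASC1 replicate N or without the libraries that failed a sex-chromosome check (adjusted p = 0.0516). Dpp4 (-1.12, adjusted p = 0.219) was called without the libraries against the sex label (-2.73, 0.00363) and without those that failed either check (-2.40, 0.016). Neither Efhd1 (-0.84) nor Anxa3 (0.57) was called without the libraries under 300000 counts, which left 1 ASC1 library of ovariectomized females. This lone library is then assumed to vary like the other groups.

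In ASC1 of ovariectomized against control females, 4 members were called higher (12.7% of all genes) and 1 lower (22.1%). Ly6c1 (3.04 ± 0.38, adjusted p = 4.34e-09), Sema3c (3.47 ± 0.59, 5.08e-06), Pi16 (2.90 ± 0.53, 1.82e-05) and Creb5 (2.40 ± 0.53, 0.000287) were higher on the log2 scale, and Anxa3 was lower (-1.99 ± 0.26, 1.64e-08). Creb5 was no longer called without ovariectomized ASC1 replicate L, at 1.32 (adjusted p = 0.269).

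In ASC2 of ovariectomized against control females 6 members were called lower (1.44% of all genes) and 0 higher (0.65%). Sema3c (-1.76 ± 0.39), Anxa3 (-0.70 ± 0.16), Ly6c1 (-1.34 ± 0.30), Dpp4 (-1.42 ± 0.34), Limch1 (-2.10 ± 0.58) and Creb5 (-1.24 ± 0.35) were lower on the log2 scale, with adjusted p of 0.00496, 0.00782, 0.00607, 0.0128, 0.0387 and 0.045. The count was 6 without the libraries against the sex label. Without control female ASC2 replicate E, which held the highest Sema3c (386 CPM) and Anxa3 (1787 CPM) of its group, Ly6c1 alone was called (-1.14, adjusted p = 0.0477). Without the 6 control female ASC2 libraries that failed a sex-chromosome check, 0 members were called by edgeR, with 2 control libraries left and adjusted p from 0.38 upward for these 6 genes. In ASC2 the median sum of 7 mural cell transcripts was 2918 CPM in ovariectomized and 580 CPM in control females. That of 5 mammary epithelium transcripts was 251 against 16.2 CPM. Fibroblast (6847 against 8173 CPM), mesothelial (59.3 against 76.5 CPM) and adipocyte sums (0 against 3.74 CPM) were lower. What part these levels play was not tested.

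Between castrated and control males the difference between populations itself differed for Dpp4 (1 of 10 members, 2.41% of all genes), and by DESeq2 also for Anxa3. Dpp4 is the sorted gene, so its value describes the sort and is not a finding on the markers. The other 9 members were not called by edgeR. The log2 fold change of Dpp4 was 5.02 in control and 2.15 in castrated males. The difference of -2.87 ± 0.59 (SE; adjusted p = 0.00194) stayed called under all 41 alternatives that could be run, with values from -3.24 to -2.57. Dpp4 in ASC1 was 1.87 ± 0.48 higher on the log2 scale in castrated than in control males (adjusted p = 0.0195), and Dpp4 in ASC2 had a log2 fold change of -0.996 ± 0.33 (0.0552). The ASC1 call was lost without control male replicate E, without castrated replicate L or M, without the libraries under 300000 counts and with limma. All 8 castrated ASC1 libraries went against the sex label, so that castration and this mismatch cannot be told apart. Mesothelial transcripts, summed over 5 genes, were at a median of 98.5 CPM in these libraries and 19.9 CPM in ASC1 of control males. What part that plays was not tested.

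Ly6c1 was also lower in ASC1 of castrated than of control males, by a log2 fold change of -1.62 ± 0.32 (adjusted p = 0.00128), so that 1 member was called higher (1.06% of all genes) and 1 lower (1.3%). In ASC2, 2 members were called lower (4.32%) and 0 higher (2.65%), Stmn4 at -1.85 ± 0.44 (adjusted p = 0.00513) and Anxa3 at -0.50 ± 0.16 (0.0447). Stmn4 had a median of 57.98 CPM in control and 15.2 CPM in castrated ASC2, and stayed called under all 27 alternatives. The call of Anxa3 was lost under 18 of them.

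Between control females and control males 0 of 10 members had another difference between populations by edgeR (0.128% of all genes), with 4 at an unadjusted p below 0.05. DESeq2 called 2, Dpp4 and Ly6c1. For Dpp4 this difference was -1.86 on the log2 scale (adjusted p = 0.141 by edgeR) and turned to 0.51 (0.787) without the libraries against the sex label and to 0.20 (0.942) without those that failed either check. Within ASC1 0 members were called (0.152% of all genes higher and 0.136% lower in females), with 2 at an unadjusted p below 0.05. Dpp4 had a log2 fold change of 1.93 ± 0.48 there (adjusted p = 0.0609), and -0.12 (0.989) without the libraries that failed a sex-chromosome check, whose removal left medians of 12.9 CPM in males and 8.56 CPM in females. Within ASC2 1 member, Stmn4, was lower in females (-1.34 ± 0.42, adjusted p = 0.0391, where 3.63% of all genes were lower) and 0 were higher (2.87%). The call of Stmn4 was lost under 13 of 27 alternatives, among them the one without the libraries against the sex label (adjusted p = 0.278, in a range of 0.0098 to 0.513).

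Other genes that mark interstitial progenitors were then compared with genes of committed preadipocytes, 20 in each list. Of the progenitor list, 14 were called higher in ASC2 of control males, 13 in castrated males and 14 in control females, with 0 lower, against the shares of all genes given above. The medians of their log2 fold changes were 1.81, 2.39 and 2.22. Bmp7, with few reads in ASC1, passed the filter on low counts mostly through ASC2. A higher level in ASC2 was thereby favoured for it, and the counts and medians include it. In ovariectomized females 4 of 20 were called higher and 6 lower, with a median of -0.19, where 22.5% of all genes were called higher and 12.9% lower. The 4 called higher are close to the share of all genes.

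Bmp7, a growth factor of the BMP family, had 3, 1 and 1 reads in ASC1 of control males, castrated males and control females and 129, 46 and 121 reads in ASC2. Its ratios of pooled levels were 36.5 (exact 95% interval 12.2 to 180), 42.3 (7.23 to 1707) and 102 (17.9 to 4043). Smpd3, a neutral sphingomyelinase, had log2 fold changes of 3.23, 3.87 and 5.21 in these groups and 1.51 in ovariectomized females (adjusted p = 0.0593). Has1, a hyaluronan synthase, had 4.83, 3.66 and 3.40 and then 0.32 (adjusted p = 0.723). Opcml, a GPI-anchored cell adhesion protein, had 2.70, 3.73 and 3.02 and then -2.95 (adjusted p = 1.37e-05). Dpt, Igfbp6, Pcolce2, Sfrp4 and Tppp3 were likewise called lower in ASC2 of ovariectomized females, with log2 fold changes between -3.10 and -1.11. Each of these 5 was called higher in at least 1 other treatment group.

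Genes of the committed preadipocyte list were called lower in ASC2 for 8 of 20 in control males, 7 in castrated males, 5 in control females and 12 in ovariectomized females, where 5.3%, 4.62%, 2.58% and 12.9% of all genes were called lower. The medians of the log2 fold changes were -0.76, -0.36, -0.68 and -1.87. Gdf10, a TGF-beta family ligand, had log2 fold changes of -1.48, -2.41, -1.27 and -5.18 in this order of groups. Clec11a, a secreted osteogenic lectin, had -2.61, -1.64 (adjusted p = 0.0939), -2.55 and -4.75. G0s2, an inhibitor of the lipase ATGL, had -2.01, -0.88 (adjusted p = 0.326), -2.28 and -2.36. Vit, an extracellular matrix protein, had -0.94, 0.55 (adjusted p = 0.44), -0.94 (0.0869) and -5.27.

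A few genes of the preadipocyte list went the other way. Pparg, the master regulator of adipogenesis, was called higher in ASC2 of control males (log2 fold change 1.62 ± 0.43, adjusted p = 0.00796), castrated males (1.59 ± 0.43, 0.0114) and control females (1.44 ± 0.45, 0.0382). In control females the order turned among libraries that passed the sex-chromosome checks, with 0.983 and 2.71 CPM in the 2 ASC2 libraries and 6.42, 6.56 and 12.02 CPM in the 3 ASC1 libraries. In control males it did not, with 51.3 to 79.2 CPM in 4 ASC2 libraries and 12.7 to 15.7 CPM in 3 ASC1 libraries. Cd36, a fatty acid transporter, and Plin2, a lipid droplet protein, were called higher in ASC2 of castrated males (2.56 and 1.33), where macrophage transcripts were higher as well, a link that was not tested. Dlk1, the preadipocyte factor, was higher in ASC2 of control males (3.00), and Bst2, an interferon-induced membrane protein, in ASC2 of ovariectomized females (1.63). Without the libraries that failed a sex-chromosome check 5 preadipocyte genes were called lower in control males and 0 in control females, and 8 progenitor genes were called higher in control females. These counts also stand without the share of all genes called in the smaller fits.

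**Figure D4:**
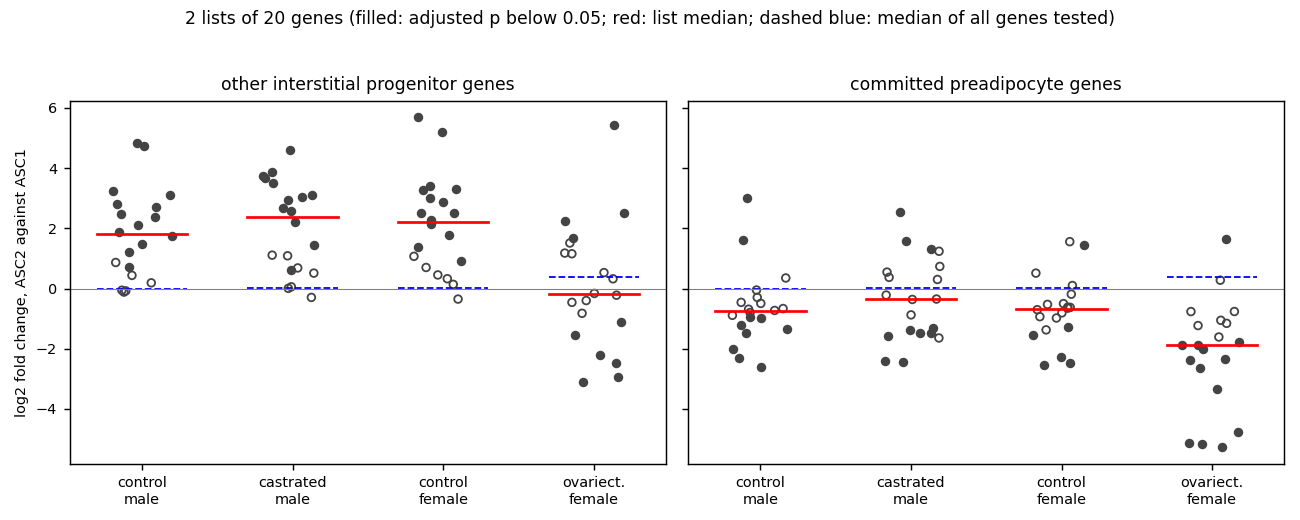
Log2 fold change in ASC2 against ASC1 (vertical axis) for 20 other progenitor genes (left) and 20 committed preadipocyte genes (right) in the 4 treatment groups; filled points have an adjusted p below 0.05, red lines are list medians and dashed blue lines the median of all genes tested. Fitted values of Bmp7 and Aldh1a3 with 3 or fewer reads in ASC1 are included. The progenitor median is 1.81 to 2.39 in 3 groups and -0.19 in ovariectomized females.

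The genes whose pattern over the 8 groups was most like the mean of the members were found among 10480 genes with a mean of at least 5 CPM. Likeness was the root mean square difference of centred group means of log2(CPM + 1). Bmp7 (0.25), Wnt10b (0.30), Kcnk5 (0.31), Ackr1 (0.33) and Arl4d (0.43) were the nearest, against a median of 1.49 over all genes compared. With 0.5 in place of 1 CPM the same 5 genes were nearest, in another order, with Bmp7 at rank 5. The mean of the members includes the sorted gene Dpp4. Bmp7 and Arl4d also stood in the progenitor list. Of the members, Efhd1 (0.43) and Stmn4 (0.50) were nearest to their mean and Pi16 (1.72) and Anxa3 (1.15) farthest from it. Wnt10b, a Wnt ligand that restrains adipogenesis, had group means of 0.151 to 0.762 CPM in ASC1 and 9.41 to 13.4 CPM in ASC2. Its ASC1 means lay below the floors of 3 counts over the group, 0.540 to 2.39 CPM. Like Bmp7, it passed the filter on low counts mostly through ASC2, so that a higher level there was favoured. Kcnk5, a potassium channel, had 3.18 to 6.87 CPM in ASC1 and 15.1 to 36.4 CPM in ASC2.

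Markers of cell types that the gate should remove were low or varied with the groups. Ptprc, which encodes CD45, had group medians from 0 to 11.9 CPM, and Pecam1, which encodes CD31, from 0 to 32.9 CPM. Ptprc was called higher in ASC2 of castrated males (log2 fold change 2.01, adjusted p = 0.0125), as were the macrophage transcripts Cd68 (1.83, 0.00134), Cd14 (1.88, 0.0029) and Adgre1 (2.26, 0.00243). Cd68 and Adgre1 were also called higher in ASC2 of ovariectomized females. All 6 endothelial markers had reads, with sums of 0 to 141 CPM per library. Mural cell markers (7 of 7 with reads) summed to group medians of 281 to 2918 CPM. ASC1 was above ASC2 in the first 3 treatment groups, with 281 against 2918 CPM in ovariectomized females. The single markers were split there. Acta2 (5.02) and Tagln (5.11) were called higher in ASC2 on the log2 scale. Kcnj8 (-3.19) and Abcc9 (-4.42) were called lower, and Rgs5 and Myh11 were not called. Mesothelial markers (5 of 5) reached 214 CPM, mammary epithelium (5 of 5) 1079 CPM, adipocyte (4 of 4) 30.6 CPM and lymphatic endothelium (3 of 3) 26.5 CPM. Their part in the results above was not tested.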

How the data were processed

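Sorted ASC1 and ASC2 of iWAT gave 58 Smart-seq3 libraries in 8 groups, assigned by their titles. For the deposited files the authors removed adapters by NGmerge 0.3, aligned with STAR 2.7.10a for quality control only, quantified transcripts of Gencode vM32 (GRCm39) with Salmon 1.9.0, removed libraries with fewer than 8500 genes, and deposited estimated counts that were not normalized. Among nonzero values 15% were fractional, and all were rounded.

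Genes needed 5 reads or more in over 3 libraries. They were tested with edgeR 4.0.16 in R 4.3.3 (TMM, glmQLFit, glmQLFTest, 1 coefficient per group), with Benjamini-Hochberg adjustment over 12464 genes. The SE is the log2 fold change divided by the square root of F, which is approximate for genes with few reads. DESeq2 1.42.0 and limma 3.58.1 (voom) were alternatives. Members, gene lists and tests were chosen with earlier results of these data known. Named were all members, and of each list the 4 genes with the largest mean absolute log2 fold change that were called, plus those called against most of the list. The fit was tested on simulated data. No libraries of a group agreed within sampling noise (the closest pair had a chi-square of 1.53 per gene). The labels do not say whether libraries of a group came from separate mice, while the study counts them as biological replicates. The p-values measure the spread between libraries. Total counts of 106566 to 1421547 limit low genes, and intervals and floors cover counting error only. The summed macrophage marker list is not reported here.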

Additional observations from a re-analysis of the deposited data

Results flagged for a closer look

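In 9 of 70 combinations of member and group 1 library lay far from the others by Dixon's criterion, where chance gives about 1 in 20, or 3.5. Pi16 was at 60.7 CPM in control male ASC1 replicate D and at 94.3 CPM in control female ASC1 replicate B. Control female ASC2 replicate E held 1787 CPM of Anxa3 and 386 CPM of Sema3c. In castrated male ASC1, replicate P held 16 CPM of Sema3c and 3.99 CPM of Efhd1, and replicate J held 5.11 CPM of Dact2. Dact2 was at 5 CPM in control female ASC1 replicate C, and Efhd1 at 49.2 CPM in ovariectomized female ASC2 replicate M.

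The difference between ASC2 and ASC1 differed between treatment groups, by the interaction test of edgeR, for 7 members. For Dpp4, the gene of the sort, it was -2.87 on the log2 scale in castrated against control males, where 2.41% of all genes were called. This value describes the sort and is not a finding on the markers. In ovariectomized against control females 34.8% of all genes were called. There the difference was -3.99 for Pi16, 1.29 for Anxa3, -5.23 for Sema3c, -3.42 for Efhd1, -3.64 for Creb5 and -4.37 for Ly6c1. Efhd1 was not called without ovariectomized ASC1 replicate N or without the libraries that failed a sex-chromosome check.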

How the results depend on the processing

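Alternatives were other scalings (RLE, library size only), no filter on low counts, filterByExpr, DESeq2, limma, only the groups compared, a 2-fold minimum, a replicate block, and leaving out libraries. Of the fold changes of members between populations, 392 kept their direction and side of the threshold under these, 21 lost the call and 5 gained it. On leaving out single libraries 553 kept both, 25 lost the call, 1 gained it and 1 reversed: Creb5 in ovariectomized females, at 0.28 (adjusted p = 0.823) without ASC1 replicate L, in a range of -1.12 to 0.28. The causes were not tested.

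Without libraries against the sex label or with both signals, members called in control females numbered 5, other progenitor genes higher there 8, preadipocyte genes lower 5 in control males and 0 in control females, and members called in ASC2 0 for ovariectomy and 0 for females against males. Without libraries against the label only, the preadipocyte counts were 5 and 0, and members called in ASC2 were 1 for castration and 0 for females against males. Without libraries under 300000 counts, 4 preadipocyte genes were lower in castrated males and 1 member was called in ASC1 for castration. DESeq2 called 2 members for the difference of castration, 2 for that of sex and 1 in ASC1 for sex. With no filter the last 2 counts were 2 and 2. Library size alone gave 1 member in ASC2 for castration, 1 in ASC1 for sex and 7 progenitor genes higher in ovariectomized females, and RLE gave 1 in ASC1 for sex. Limma called 4 members in ASC2 and 1 in ASC1 for castration, and the 2-fold minimum left 1 in ASC2. The share of all genes called under each alternative is not given here, so a general loss or gain of calls cannot be told apart.

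Leaving out 1 library at a time, members called were 9 to 10 in control males, 7 to 8 in castrated males, 9 to 10 in control females and 3 to 4 in ovariectomized females. For the difference between populations they were 1 to 1 for castration, 5 to 6 for ovariectomy, 0 to 1 for sex (1 without control male ASC2 replicate H) and 6 to 8 jointly. Within ASC2 they were 1 to 3, 1 to 8 and 0 to 1, and within ASC1 1 to 2, 5 to 5 and 0 to 1, in the same order. Progenitor genes called higher were 13 to 14, 12 to 15, 14 to 15 and 3 to 5, and preadipocyte genes called lower 5 to 8 (5 without control male ASC1 replicate C or D), 6 to 8, 5 to 6 and 11 to 13.

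Letters shared by ASC1 and ASC2 libraries were checked for pairing. Of 26 pairs, 7 had a correlation of deviations over 0.1 (range -0.227 to 0.32). Each ASC1 library had 8 ASC2 libraries to match, and 10 correlated best with their own letter. In control males these were 4 of 7, with a median correlation of 0.103 against -0.0196 for other pairs. In castrated males it was 1 of 8. The labels do not say whether a letter marks the same mouse, and the main fit did not pair by letter. A replicate block gave 1 member for the difference of sex and 5 preadipocyte genes lower in control males. Depth limits Dact2 and Limch1, with 169 and 265 reads in all, and the 3 ASC1 libraries of ovariectomized females.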
